A study of Mus musculus with 25 samples.

Results

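Growing myoblasts from MyoD-/- mice were compared with wild-type myoblasts by the RNA of their genes. Myoblasts are the dividing daughters of satellite cells, the stem cells of adult skeletal muscle. There were 3 RNA samples per genotype, with the letters A, B and C, and each was hybridised to the Affymetrix chip types U74Av2, U74Bv2 and U74Cv2. The comparison therefore took the 18 arrays of 6 samples from a series of 25 arrays and 9 samples, and all 36701 probe sets that are not controls. The other 7 arrays held myoblasts of p53-/- mice, a strain without the stress-response factor p53, and entered the model only to estimate the spread. Wild-type cells carried no labelled deletion, and MyoD-/- cells lacked MyoD. No treatment is labelled, and the labels give no strain, age or sex of the mice. Cells of both genotypes were purified by preplating and passage and grown with fetal calf serum and bFGF on collagen, so both came from passaged cultures and not from tissue. Purity was judged by desmin, Myf5 and MyoD in wild type, but by Myf5 and c-met in MyoD-/- cells, per the labels.

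MyoD, the product of Myod1, is a basic helix-loop-helix transcription factor that pairs with E proteins and binds E-box sequences in the control regions of muscle genes. With Myf5 it commits cells to the muscle lineage, and with myogenin it switches on the genes of contraction, of the acetylcholine receptor and of cell fusion as myoblasts leave the cell cycle and join into myotubes. Mice without MyoD still form muscle, in which Myf5 persists, and their satellite cells are known to differentiate poorly in culture.

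The values were MAS5 signals, a brightness per probe set in arbitrary units. Testing required a signal above the array's 40th percentile on 3 or more arrays of the chip type, and 23635 of 36701 probe sets met this. In all that follows a fold change is the difference of mean log2(signal + offset), MyoD-/- minus wild type, with its standard error after the ± sign. The offset was the 20th percentile of a chip type's signals, 67.2 on U74Av2, 146 on U74Bv2 and 106 on U74Cv2, so the fold changes of genes that end near it are understated. A gene was called, and is said to have risen or fallen, at a limma adjusted p under 0.05, and its representative was the brightest tested probe set by mean rank on the chip. The median fold change of all genes tested was -0.0008.

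Samples stood apart in some features that the genotype does not explain. Xist, which is transcribed from the inactive X chromosome of female cells, read 111, 6495 and 39.8 in wild type A, B and C and 2894, 3859 and 4514 in MyoD-/- on U74Av2, and the Y-linked Eif2s3y read 813, 16.9 and 1280 against 8.11, 37.4 and 81.5. Wild type B and the 3 MyoD-/- samples thus had signals of female cells, and wild type A and C of male cells. Sample MyoD-/- A was scanned on another day than the other arrays on U74Av2 and U74Cv2. A scan-day block there sets this sample aside, so it is no separate check from leaving the sample out. MyoD-/- A differed at least 4-fold from both other MyoD-/- samples in 23 genes, the highest such count of the 6 samples. The median gene of chromosome 14 was brighter in wild type C than in wild type A and B. The scanner record of the U74Cv2 array labelled MyoD-/- B carries the letter A, and the label was followed. On U74Cv2 the recorded chip lots separate wild type from MyoD-/- B and C, so lot and genotype cannot be told apart there. On U74Bv2, MyoD-/- A shared its scan day with wild type B and C. Wild type A was scanned on day 1, and MyoD-/- B and C on day 3 without a wild-type array. For those arrays scan day and genotype cannot be told apart, and a scan-day block compares MyoD-/- A with wild type B and C alone. Genes whose brightest probe set lay on U74Cv2 included Ano5, Chrna1, Pvalb, Mylk4, Tnni1, Sntb1, Mymx, Cdon, Trim54, Plagl1, Erbb2, Col5a1, Hdac9, Egln3, Serpinb9b, Rasgrf1 and Itgbl1.

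Of 12058 genes tested, 742 rose (6.15%) and 823 fell (6.83%) in MyoD-/- cells, 13% in all. The list counts below are to be read against these shares. Counted by probe sets, 1178 rose (4.98%) and 1337 fell (5.66%) of 23635, or 10.6%. At least 2-fold changes made up 392 of the genes that rose and 443 of those that fell, at least 8-fold changes 49 and 60, and at least 32-fold changes 7 and 7. A model with scan day as a block called 554 genes higher and 638 lower. The 3 samples of a genotype did not overlap with those of the other in 31.5% of genes. The share called was 14.8% of probe sets on U74Av2, 11.7% on U74Bv2 and 5.46% on U74Cv2, where the arrays of a genotype also correlated least with each other (Pearson's r of 0.938 to 0.954 over probe sets, which are no replicates of each other).

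Myod1 itself read 37440, 40169 and 45187 in wild type and 5352, 4024 and 5152 in MyoD-/-. The groups lay far apart, with log2 -3.07 ± 0.15, adjusted p = 3.06e-06, and the signal left in MyoD-/- cells was still well above the offset. The sources used here do not say whether the probes lie inside the deleted part. Of the 40 tested genes nearest to Myod1 on chromosome 7, 20 on each side, 1 rose and 3 fell. This share was below the 13% called of all genes and the 15.6% called on chromosome 7. Ano5, a membrane protein of muscle at the far end of that stretch, read 752, 894 and 1412 in wild type and 29.7, 17.8 and 28.4 in MyoD-/- (log2 -3.05 ± 0.34, adjusted p = 0.000266). Its MyoD-/- signals were below the offset in every sample. Otog, the tested gene next to Myod1, and Saal1 fell by 0.76 and 0.71 on the log2 scale, and Bcat2, an enzyme of branched-chain amino acid breakdown, rose by 1.60. These 3 calls were lost on leaving out single samples, all 3 of them without wild type B, with adjusted p = 0.0707 for Otog, 0.0957 for Saal1 and 0.0938 for Bcat2. With the scan day as a block Otog (adjusted p = 0.064) and Bcat2 (adjusted p = 0.0797) were not called either.

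Transcription factors of the muscle programme moved both ways. Of 31 tested, 4 rose and 11 fell, Myod1 and Myog included, with a median log2 fold change of -0.17. Myf5, the nearest relative of MyoD in the early lineage, read 165, 1041 and 973 in wild type and 3548, 3419 and 6026 in MyoD-/- (log2 2.72 ± 0.50, adjusted p = 0.00609). Wild type A had the lowest Myf5 of all, and the 2 genotypes did not overlap. Myf6, the family member of mature fibres, was dim and read 167, 157 and 126 in wild type and 582, 313 and 597 in MyoD-/- (log2 1.34 ± 0.27, adjusted p = 0.0107), a call lost without MyoD-/- C (adjusted p = 0.051). Pitx3, a homeobox factor of differentiating myoblasts, read 2684, 2406 and 4241 in wild type and 531, 101 and 110 in MyoD-/- (log2 -3.56 ± 0.45, adjusted p = 0.000641). The homeobox genes Six2 and Six4, whose relatives act on Myod1 and Myog in the embryo, fell by 2.01 and 1.60 on the log2 scale. Rbm24, an RNA-binding protein of muscle splicing, read 17180, 16940 and 9107 in wild type and 1000, 1032 and 709 in MyoD-/- (log2 -3.74 ± 0.25, adjusted p = 5.41e-05). Nfib, a nuclear factor I gene that is also on chromosome 4, went the other way and read 219, 248 and 219 in wild type and 2571, 1049 and 1128 in MyoD-/- (log2 2.10 ± 0.31, adjusted p = 0.00277). The Mef2 genes, partners of MyoD on muscle promoters, were not called, with values of -0.80 ± 0.38 for Mef2c, -0.26 ± 0.23 for Mef2a and -0.08 ± 0.14 for Mef2d.

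Among the other helix-loop-helix genes 3 of 21 rose and 5 fell, or 38.1% called against 13% of all genes. Twist1 and Twist2, which hold mesenchymal cells undifferentiated and compete with MyoD for E proteins, rose together. Twist1 read 489, 413 and 259 in wild type and 3253, 3711 and 2987 in MyoD-/- (log2 2.93 ± 0.32, adjusted p = 0.000251), and Twist2 rose by 1.99 ± 0.28. Bhlhe40, a repressor induced by hypoxia and many other signals, read 46.1, 13.9 and 89.6 in wild type and 651, 882 and 650 in MyoD-/- (log2 2.80 ± 0.31, adjusted p = 0.000292), from below the offset in 2 of 3 wild-type samples. The inhibitors that lack a DNA-binding region did not follow the Twist genes. Id3 fell by 1.77 ± 0.19 and Id2 by 0.52 ± 0.11, while Id1, at -0.34 ± 0.19, was not called. The calls of Bhlhe41 and Tcf12, which make up 2 of the 5 falls, were lost without wild type A or B, without MyoD-/- A or B, or when scan day was a block, and that of Id2 without wild type B (adjusted p = 0.0546).

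Chromatin regulators changed in few members, 2 up and 2 down of 32, which is near the share of all genes. In each of the 4 the genotypes did not overlap, which a call makes likely and which held for 31.5% of all genes. Smarcd3, the muscle and heart subunit of the SWI/SNF remodelling complex that MyoD is known to recruit, read 13711, 15833 and 17628 in wild type and 4392, 3936 and 5158 in MyoD-/- (log2 -1.77 ± 0.15, adjusted p = 0.000153). Kat2b, an acetyltransferase that modifies MyoD, read 449, 219 and 208 in wild type and 1285, 1103 and 1406 in MyoD-/- (log2 1.95 ± 0.24, adjusted p = 0.000568). Hdac9, a deacetylase that represses Mef2, rose by 1.82 ± 0.38, and the Polycomb subunit Eed fell by 0.70 ± 0.12.

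Genes of the acetylcholine receptor and of the muscle side of the synapse fell in 9 of 13 cases and rose in 0, with a median of -1.498. Chrna1, Chrng and Chrnd encode the embryonic receptor with Chrnb1, and Musk and Lrp4 form the receptor for the nerve's agrin. Chrna1, a bright gene of wild-type cells, read 58406, 47074 and 44304 in wild type and 738, 788 and 4066 in MyoD-/- (log2 -5.08 ± 0.50, adjusted p = 0.000146). MyoD-/- C was the brightest of the knockout samples, and still far below every wild-type sample. Chrng read 7422, 8464 and 5316 in wild type and 445, 93.8 and 595 in MyoD-/- (log2 -4.21 ± 0.43, adjusted p = 0.000187), and Chrnd read 3321, 3522 and 3004 in wild type and 126, 34.8 and 463 in MyoD-/- (log2 -3.94 ± 0.46, adjusted p = 0.00041). In both genes MyoD-/- C was again the highest and MyoD-/- B the lowest of the knockout samples. Musk, on chromosome 4, read 893, 786 and 1087 in wild type and 65, 21 and 70.5 in MyoD-/- (log2 -3.07 ± 0.42, adjusted p = 0.00118), near or below the offset in all MyoD-/- samples. Lrp4 fell by 3.41 ± 0.42 and Chrnb1 by 1.70 ± 0.18. The adult subunit Chrne, which replaces the Chrng subunit after birth, did not pass the test at 0.23 ± 0.27.

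The promoters of 4 muscle genes that fell are shown because they carry the E-box letters to which MyoD binds. Each window runs from 250 bases before to 50 after a RefSeq transcription start in build GRCm38.p6, written 5′ to 3′ on the gene's strand, and capitals mark CAGCTG, or CAGGTG on either strand.
Chrna1 (chr2:73580289-73580588, minus strand): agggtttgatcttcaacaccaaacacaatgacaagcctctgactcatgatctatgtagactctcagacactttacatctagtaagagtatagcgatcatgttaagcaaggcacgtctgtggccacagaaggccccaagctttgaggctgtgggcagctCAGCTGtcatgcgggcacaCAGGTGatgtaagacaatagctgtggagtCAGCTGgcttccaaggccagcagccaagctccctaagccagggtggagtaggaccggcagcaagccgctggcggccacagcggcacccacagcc
Chrng (chr1:87205561-87205860, plus strand): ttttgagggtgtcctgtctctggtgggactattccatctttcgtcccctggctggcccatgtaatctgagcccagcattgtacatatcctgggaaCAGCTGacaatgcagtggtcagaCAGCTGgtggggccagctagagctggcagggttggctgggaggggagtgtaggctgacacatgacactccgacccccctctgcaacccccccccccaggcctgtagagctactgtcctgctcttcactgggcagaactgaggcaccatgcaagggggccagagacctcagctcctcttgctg
Acta1 (chr8:123894726-123895025, minus strand): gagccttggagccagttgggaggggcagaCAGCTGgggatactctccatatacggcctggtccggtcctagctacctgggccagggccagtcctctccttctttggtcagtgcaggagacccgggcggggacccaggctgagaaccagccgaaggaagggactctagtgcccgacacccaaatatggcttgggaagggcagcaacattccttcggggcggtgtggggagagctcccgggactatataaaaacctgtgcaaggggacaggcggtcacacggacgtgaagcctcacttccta
Musk (chr4:58285712-58286011, plus strand): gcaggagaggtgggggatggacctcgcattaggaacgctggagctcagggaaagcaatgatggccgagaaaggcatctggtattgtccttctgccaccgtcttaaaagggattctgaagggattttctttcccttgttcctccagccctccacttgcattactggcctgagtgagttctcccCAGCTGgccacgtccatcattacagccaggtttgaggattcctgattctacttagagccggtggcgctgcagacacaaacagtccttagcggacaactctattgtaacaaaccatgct

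These motifs were counted in the promoter windows of all genes with a window in the table, 9640 of 12058 tested. CAGCTG, which reads the same on both strands, was present in 18% of the tested genes, in 27.7% of those that fell and in 40.5% of those that fell at least 4-fold. In genes that rose the shares were 19.1%, and 15.7% of those that rose at least 4-fold. CAGGTG, searched on both strands and unable to overlap with CAGCTG, was present in 21.7% of tested genes, 24.3% of those that fell and 22.2% of those that rose. A window of this length with either motif was found in 32.9% of all 32851 promoters of the table. The windows of Myog and Myh3, which both fell, held neither. Motif shares are descriptions of these windows and no binding was measured.

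Excitation-contraction coupling, the chain from the membrane signal to calcium release, fell in 12 of 23 genes and rose in 2, with a median of -0.75. Stac3, which holds the calcium channel in the junction, read 12798, 12418 and 9268 in wild type and 139, 385 and 235 in MyoD-/- (log2 -4.90 ± 0.24, adjusted p = 1.06e-05). Ryr1, the calcium release channel, read 1506, 2174 and 1568 in wild type and 22.7, 53.9 and 32.6 in MyoD-/- (log2 -4.12 ± 0.31, adjusted p = 3.16e-05), and was below the offset in every MyoD-/- sample. Jsrp1 and Jph2, proteins of the same junction, fell by 3.48 ± 0.26 and 2.92 ± 0.32, and the calcium pump Atp2a1 by 2.87 ± 0.24. Pvalb, a calcium buffer of fast fibres, read 19928, 18467 and 14556 in wild type and 26366, 39078 and 34594 in MyoD-/- (log2 0.91 ± 0.17, adjusted p = 0.00762). The calcium store protein Casq1 was not called at 0.28 ± 0.17. Without wild type A or B 7 of the 12 kept their call, Atp2a2, Casq2 and Srl lost it, and Cacna1s and Ryr1 no longer had 3 arrays above the filter and were not tested.

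Thick filament genes fell in 10 of 13 cases and thin filament and Z disc genes in 12 of 25, and none of either list rose. The medians were -2.72 and -1.43. Myh3, the embryonic myosin heavy chain, read 1807, 3946 and 1396 in wild type and 5.40, 4.57 and 18.6 in MyoD-/- (log2 -4.86 ± 0.47, adjusted p = 0.000134), below the offset in every MyoD-/- sample. Mylk4, a myosin kinase, read 8040, 7876 and 3038 in wild type and 19.9, 50.4 and 44.1 in MyoD-/- (log2 -5.36 ± 0.54, adjusted p = 0.000153). Myl1, the alkali light chain of fast myosin, read 6904, 10148 and 4874 in wild type and 193, 289 and 316 in MyoD-/- (log2 -4.42 ± 0.36, adjusted p = 5.20e-05). No MyoD-/- sample came near a wild-type sample in these genes.
Acta1, the skeletal actin, read 20968, 26507 and 10864 in wild type and 294, 788 and 537 in MyoD-/- (log2 -5.00 ± 0.54, adjusted p = 0.000246), and the X-linked stretch-associated protein Smpx fell by 4.29 ± 0.31. Tnni1, the slow troponin I, read 23923, 29321 and 22552 in wild type and 1953, 2163 and 2015 in MyoD-/- (log2 -3.55 ± 0.33, adjusted p = 0.00011), and stayed bright in all MyoD-/- samples. Myl4, the embryonic light chain, and Mylpf, the fast regulatory chain, fell by 1.10 ± 0.21 and 1.95 ± 0.24 at their brightest probe sets. Another probe set of each differed by more, -3.95 for Myl4 (adjusted p = 0.000336) and -4.27 for Mylpf (adjusted p = 0.000432). Within wild type, B was the highest and C the lowest sample for Myh3, Myl1, Acta1, Tnnc1 and Tnni1. On leaving out any 1 wild-type sample no thick filament gene lost its call, but Mybpc1, Myh3, Smyd1 and Unc45b no longer had 3 arrays above the filter and were not tested, which left 6.

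**Figure D1:**
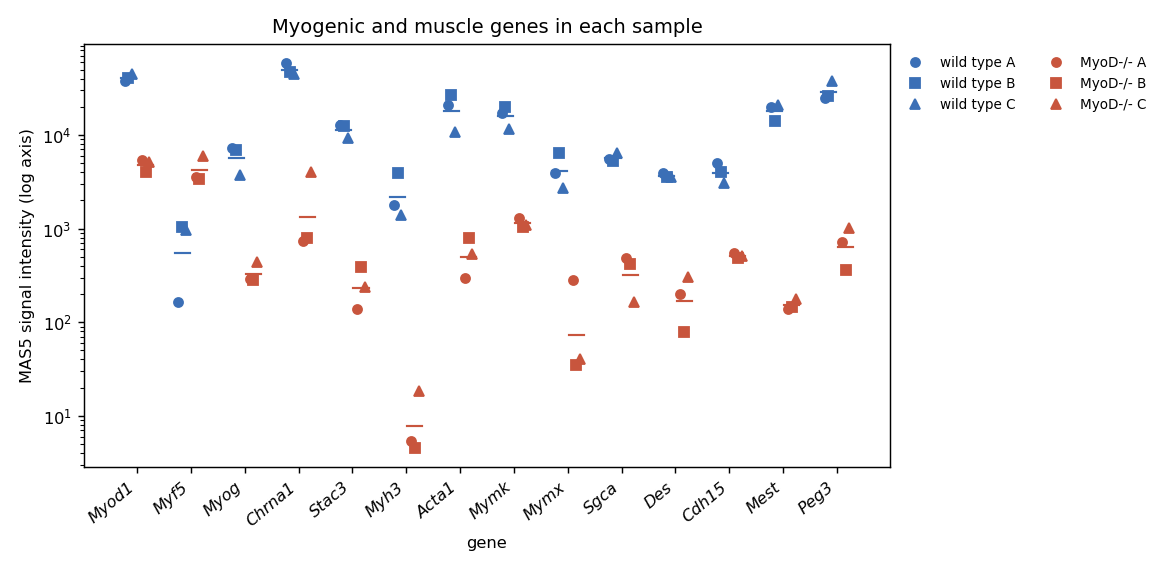
MAS5 signals on a log axis of 14 myogenic and muscle genes in the 3 wild-type samples (blue) and the 3 MyoD-/- samples (red), with circles, squares and triangles for A, B and C and a line at the mean of the log signals. All but Myf5 are lower in MyoD-/- than in every wild-type sample, and Myf5 is higher.

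Genes of muscle energy supply fell in 7 of 15 cases and 1 rose. Car3, the carbonic anhydrase of slow muscle and fat, read 4130, 5350 and 2846 in wild type and 27.1, 28.4 and 29.7 in MyoD-/- (log2 -5.40 ± 0.49, adjusted p = 0.000101), and the oxygen carrier myoglobin, Mb, fell by 3.36 ± 0.53. Pgam2 and Cox6a2, the muscle forms of a glycolytic and a respiratory enzyme, fell by 3.13 ± 0.31 and 2.51 ± 0.31. Eno3, the muscle enolase, changed less and read 24584, 24682 and 26143 in wild type and 12040, 15181 and 14980 in MyoD-/- (log2 -0.84 ± 0.12, adjusted p = 0.00146). Muscle creatine kinase, Ckm, was not called at 0.03 ± 0.27 on U74Cv2. On leaving out any 1 wild-type sample Cox8b lost its call, and Cox6a2 and Pgam2 were no longer tested, which left 4 that fell.

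In the dystrophin complex, which ties the actin skeleton to the matrix through the membrane, 5 of 16 genes fell and 2 rose. Sgca, the sarcoglycan made only in muscle, read 5529, 5300 and 6428 in wild type and 488, 418 and 166 in MyoD-/- (log2 -3.87 ± 0.54, adjusted p = 0.00122). Sntb1, a syntrophin, read 15856, 17054 and 9347 in wild type and 760, 418 and 431 in MyoD-/- (log2 -4.46 ± 0.69, adjusted p = 0.00221), and Cav3, the muscle caveolin, fell by 2.11 ± 0.43. The widely expressed members Utrn and Dag1 were not called, at -0.25 ± 0.18 and 0.44 ± 0.16. Without wild type A the calls of Dtna and Sgcb were lost, which left 3 that fell. The 2 that rose, Sgce and Vcl, were both lost without wild type B or C or MyoD-/- B or C.

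Recognition and fusion genes were divided, with 4 of 25 up and 5 down and a median of 0.16. The fusion proteins proper fell. Mymk, the membrane protein myomaker, read 17066, 20081 and 11470 in wild type and 1292, 1036 and 1097 in MyoD-/- (log2 -3.63 ± 0.20, adjusted p = 2.13e-05), and its partner myomerger, Mymx, read 3970, 6459 and 2690 in wild type and 280, 35.3 and 40.2 in MyoD-/- (log2 -4.40 ± 0.68, adjusted p = 0.00218). In Mymx MyoD-/- A was the brightest knockout sample, and all 3 were below wild type. Cdon, a receptor that promotes differentiation at cell contacts, fell by 1.69 ± 0.21. Its ligand-binding partner Neo1 read 4400, 4057 and 3617 in wild type and 7333, 7584 and 6525 in MyoD-/- (log2 0.81 ± 0.13, adjusted p = 0.00544). Adam12, a protease and disintegrin of fusing cells, read 42.5, 47 and 44.9 in wild type and 357, 809 and 427 in MyoD-/- (log2 2.34 ± 0.32, adjusted p = 0.00115). Its signals were below the offset in every wild-type sample, so none of these helped it to pass the filter. The interleukin receptor Il4ra rose by 1.31 ± 0.23 and the tetraspanin Cd9 by 0.85 ± 0.16.

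The muscle ubiquitin ligase list fell in 4 of 10 cases. Trim54, a ligase of the sarcomere, read 2442, 5914 and 4020 in wild type and 141, 299 and 162 in MyoD-/- (log2 -3.73 ± 0.44, adjusted p = 0.000426). Klhl41 and Klhl40, adaptors that stabilise thin filament proteins, fell by 3.46 ± 0.36 and 2.12 ± 0.19. Fbxo32, the atrophy ligase atrogin, did not pass at -0.67 ± 0.30. Without any 1 wild-type sample Foxo1 lost its call and Klhl41 was no longer tested.

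Imprinted genes, of which a single parental copy is active, fell in 5 of 20 cases and rose in 3, and 4 of those that fell did so by over 3 on the log2 scale. Mest read 20020, 14257 and 20817 in wild type and 139, 146 and 177 in MyoD-/- (log2 -6.36 ± 0.19, adjusted p = 7.60e-08). Peg3, a zinc finger gene on chromosome 7, read 24924, 26040 and 37610 in wild type and 720, 365 and 1006 in MyoD-/- (log2 -5.35 ± 0.51, adjusted p = 0.000128). Plagl1, another zinc finger gene, read 66835, 28204 and 90380 in wild type and 5849, 4704 and 6324 in MyoD-/- (log2 -3.29 ± 0.35, adjusted p = 0.000239), with wild type B the lowest of its group. Gatm, which makes the precursor of creatine and is imprinted in the placenta, fell by 3.90 ± 0.36. These 4 genes lie on chromosomes 6, 7, 10 and 2, and all are expressed from the paternal copy except Gatm, which is expressed from the maternal one. Neither the direction nor the count pointed one way for the rest, since Igf2r rose by 0.94 ± 0.14 and Dlk1, a surface protein of the embryo, was not called at 0.47 ± 0.27. Of the genes that rose, Peg10 and Sgce lost their calls without wild type B or C or MyoD-/- A or C, or when scan day was a block.

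Genes of the insulin-like growth factor axis, which overlap with the imprinted list, moved both ways. Igf2, the imprinted growth factor, read 20705, 22536 and 24861 in wild type and 7926, 8179 and 3841 in MyoD-/- (log2 -1.83 ± 0.48, adjusted p = 0.0346), a call lost on leaving out any 1 of the 6 samples (adjusted p = 0.0507 to 0.12) or when scan day was a block (adjusted p = 0.0574). Igf2r, the receptor that removes the factor, was brighter in every MyoD-/- sample. The binding proteins went opposite ways. Igfbp3 read 1649, 2865 and 2258 in wild type and 110, 127 and 71.1 in MyoD-/- (log2 -3.76 ± 0.32, adjusted p = 7.17e-05), and Igfbp6, which prefers IGF2, read 157, 99.5 and 267 in wild type and 2552, 2266 and 1520 in MyoD-/- (log2 3.20 ± 0.57, adjusted p = 0.005). Igf2bp1, a protein that binds the IGF2 messenger RNA, read 352, 297 and 236 in wild type and 1834, 1839 and 1651 in MyoD-/- (log2 2.36 ± 0.17, adjusted p = 2.98e-05). The receptor Igf1r was not called at -0.48 ± 0.21, and of all 14 genes 3 rose and 2 fell.

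Among ligands, inhibitors and receptors of the TGF-beta family 8 of 39 genes rose and 4 fell. Secreted inhibitors and matrix-bound forms were among those that rose. Grem1, which blocks bone morphogenetic proteins, read 2480, 2340 and 155 in wild type and 49401, 78006 and 37892 in MyoD-/- (log2 5.40 ± 0.73, adjusted p = 0.00183), with wild type C far below wild type A and B. Fstl3, which blocks activin and myostatin, read 1185, 557 and 650 in wild type and 6417, 9203 and 8031 in MyoD-/- (log2 3.13 ± 0.25, adjusted p = 0.000119). Ltbp2, a matrix protein of the latent TGF-beta binding family, rose by 3.06 ± 0.45. The ligand genes Bmp2 and Inhba rose by 3.33 ± 0.39 and 2.51 ± 0.48. Myostatin, Mstn, the inhibitor of muscle growth, read 568, 433 and 384 in wild type and 151, 109 and 113 in MyoD-/- (log2 -1.46 ± 0.30, adjusted p = 0.0116), and its receptor Acvr2a read 1835, 1293 and 1296 in wild type and 494, 706 and 555 in MyoD-/- (log2 -1.24 ± 0.19, adjusted p = 0.00188). Without wild type A or B Smad1 lost its call and Mstn was no longer tested, which left 2 that fell.

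Among receptor tyrosine kinases, their ligands and regulators 6 of 37 genes rose and 5 fell, or 29.7% called against 13% of all genes. Those that rose were the ligand genes Bdnf, Ereg, Fgf7, Kitl and Pdgfc and the receptor gene Erbb2, and those that fell were the receptor genes Met, Erbb3 and Ddr1, the ligand gene Gas6 and the inhibitor gene Spry1. The call of Spry1 was lost with the scan day as a block (adjusted p = 0.0862) and without wild type B (adjusted p = 0.0695), wild type C (adjusted p = 0.0535) or MyoD-/- B (adjusted p = 0.0577). Met encodes the receptor of hepatocyte growth factor, was the purity marker of the knockout, and read 17724, 18057 and 18421 in wild type and 6871, 6164 and 7149 in MyoD-/- (log2 -1.41 ± 0.12, adjusted p = 0.00015). Erbb3, a neuregulin receptor, read 1394, 2041 and 784 in wild type and 290, 178 and 398 in MyoD-/- (adjusted p = 0.00342). Gas6, a ligand of the Axl family, read 6592, 4953 and 2987 in wild type and 284, 108 and 227 in MyoD-/- (log2 -4.15 ± 0.31, adjusted p = 3.16e-05). Bdnf, a neurotrophin, read 3824, 3275 and 2748 in wild type and 14793, 25491 and 24210 in MyoD-/- (log2 2.66 ± 0.20, adjusted p = 3.44e-05). Fgf7 and Kitl, growth factors that mesenchymal cells make for epithelia and for stem cells, rose by 3.20 ± 0.36 and 2.60 ± 0.29. The epidermal growth factor relative Ereg rose by 3.28 ± 0.42 and Pdgfc by 1.83 ± 0.25. The receptors Pdgfra and Fgfr1 did not pass, at -0.08 ± 0.24 and -0.60 ± 0.18.

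Guidance cues for axons, which muscle cells also secrete, had 8 of 50 genes up and 7 down, or 30% called against 13% of all genes. Nrn1, the neurite factor neuritin, read 599, 238 and 447 in wild type and 27692, 31814 and 25473 in MyoD-/- (log2 5.68 ± 0.23, adjusted p = 5.49e-06). Secreted class 3 semaphorins differed among themselves, for Sema3c read 122, 91.5 and 52.1 in wild type and 3010, 4855 and 3276 in MyoD-/- (log2 4.02 ± 0.24, adjusted p = 3.16e-05) while Sema3e read 10125, 13135 and 13480 in wild type and 2988, 2795 and 3714 in MyoD-/- (log2 -1.93 ± 0.17, adjusted p = 9.67e-05). The membrane-bound Sema6a, Sema6d and Sema4d fell by 3.19 ± 0.22, 1.74 ± 0.22 and 1.87 ± 0.34. Nrp2, a coreceptor for semaphorins, read 20.5, 196 and 142 in wild type and 2772, 2531 and 1998 in MyoD-/- (log2 3.33 ± 0.29, adjusted p = 0.000182), and its relative Nrp1 was not called at 0.67 ± 0.32. Of those that rose, Sema3b lost its call on leaving out wild type B or C or any 1 MyoD-/- sample, Gap43 and Unc5c under most of these, and Sema3c was not tested without any 1 MyoD-/- sample. With the scan day as a block Sema3a, Sema3b and Unc5c were lost. Without wild type A Robo1 and Stmn2 lost their calls among the falls and Sema6a was not tested.

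Of 27 cytokine and chemokine genes 7 rose and 3 fell, or 37% called against 13% of all genes, with a median of 0.30. The ligand Cxcl12 and its receptors went opposite ways. Cxcl12 read 3383, 3203 and 1802 in wild type and 16785, 11495 and 10831 in MyoD-/- (log2 2.22 ± 0.37, adjusted p = 0.00339). Cxcr4, its signalling receptor on satellite cells, read 1082, 1390 and 1591 in wild type and 109, 172 and 187 in MyoD-/- (log2 -2.67 ± 0.22, adjusted p = 6.43e-05), and Ackr3, the scavenger receptor, fell by 2.40 ± 0.29. Tnfrsf11b, the decoy receptor osteoprotegerin, rose by 2.57 ± 0.29. Cx3cl1, a membrane-bound chemokine, read 1658, 2229 and 2730 in wild type and 19758, 10681 and 4311 in MyoD-/- (log2 2.13 ± 0.43, adjusted p = 0.0106), with MyoD-/- A more than 4 times MyoD-/- C.

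Collagen chains rose in 7 of 21 cases and fell in 1, and the enzymes that process and cross-link collagen rose in 9 of 16 and fell in 0, with medians of 0.35 and 0.65. Col8a1, a short-chain collagen, read 984, 845 and 697 in wild type and 10069, 7605 and 5891 in MyoD-/- (log2 3.10 ± 0.25, adjusted p = 5.21e-05). Col5a1, which starts collagen fibrils, read 7253, 3840 and 2752 in wild type and 10754, 16058 and 20646 in MyoD-/- (log2 1.82 ± 0.35, adjusted p = 0.00779). Col15a1, a basement membrane collagen on chromosome 4, rose by 3.44 ± 0.33 from signals below the offset, and Col16a1 by 1.71 ± 0.22. Col18a1, a heparan sulphate collagen of basement membranes, read 13372, 16940 and 9986 in wild type and 6077, 4086 and 3520 in MyoD-/- (log2 -1.55 ± 0.22, adjusted p = 0.00129). The fibrillar Col3a1 and Col4a1 of basement membranes were not called, and both overlapped between the genotypes. The summed signal of fibroblast markers was higher in each MyoD-/- sample than in each wild-type sample. Without Col1a1 and S100a4, the 2 markers that rose, it was 20145 to 23241 in wild type and 19412 to 20027 in MyoD-/-. A loss of the excess follows from that choice, and the sum takes only the brightest probe set of each gene. The part of fibroblast markers in the matrix results was not tested.

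The probe sets of the type I collagen genes gave different answers. The brightest probe set of Col1a2 read 3540, 3631 and 3750 in wild type and 3251, 3784 and 3387 in MyoD-/- and was not called, while another probe set of the gene differed by 2.63 (adjusted p = 0.0265). Col1a1 rose by 2.26 ± 0.21 at its brightest probe set. Loxl3, a lysyl oxidase relative, read 328, 273 and 208 in wild type and 6712, 4747 and 3198 in MyoD-/- (log2 3.55 ± 0.27, adjusted p = 8.99e-05). P4ha1, the catalytic chain of prolyl hydroxylase, read 938, 881 and 869 in wild type and 4190, 3632 and 4486 in MyoD-/- (log2 2.11 ± 0.13, adjusted p = 9.62e-06), and Pcolce, which helps to cut procollagen, rose by 1.63 ± 0.28. The collagen chaperone Serpinh1 was bright and not called at -0.03 ± 0.17. Without MyoD-/- B 5 of the 9 enzymes kept their call, Crtap, P3h3 and Plod3 lost it, and Loxl3 was not tested.

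Elastic fibre and matricellular genes rose in 5 of 20 cases and fell in 0, and proteoglycans rose in 3 of 19 and fell in 1. The called shares were 25% and 21%, against 13% of all genes. Fbln2 read 361, 485 and 913 in wild type and 14831, 21461 and 24647 in MyoD-/- (log2 5.02 ± 0.39, adjusted p = 4.21e-05), and its relative Fbln5, which guides elastin assembly, read 872, 728 and 921 in wild type and 4695, 4068 and 3767 in MyoD-/- (log2 2.13 ± 0.16, adjusted p = 8.04e-05). Elastin itself, Eln, was not called at -0.29 ± 0.34. Sparc, a collagen-binding protein, read 7051, 9307 and 8877 in wild type and 21087, 20595 and 24202 in MyoD-/- (log2 1.38 ± 0.18, adjusted p = 0.000742), and Matn2 rose by 2.39 ± 0.35. Bgn, the proteoglycan biglycan, read 635, 561 and 762 in wild type and 50645, 50909 and 42353 in MyoD-/- (log2 6.06 ± 0.52, adjusted p = 7.39e-05), and Gpc6, a glypican on chromosome 14, rose by 2.99 ± 0.28. Sdc2, a syndecan, fell by 0.90 ± 0.16, and without wild type C 5 proteoglycans rose. Fibronectin, Fn1, was not called at -0.07 ± 0.16, nor was tenascin C at -0.10 ± 0.89, where MyoD-/- A read 1115 and B and C read 14113 and 16408.

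**Figure D2:**
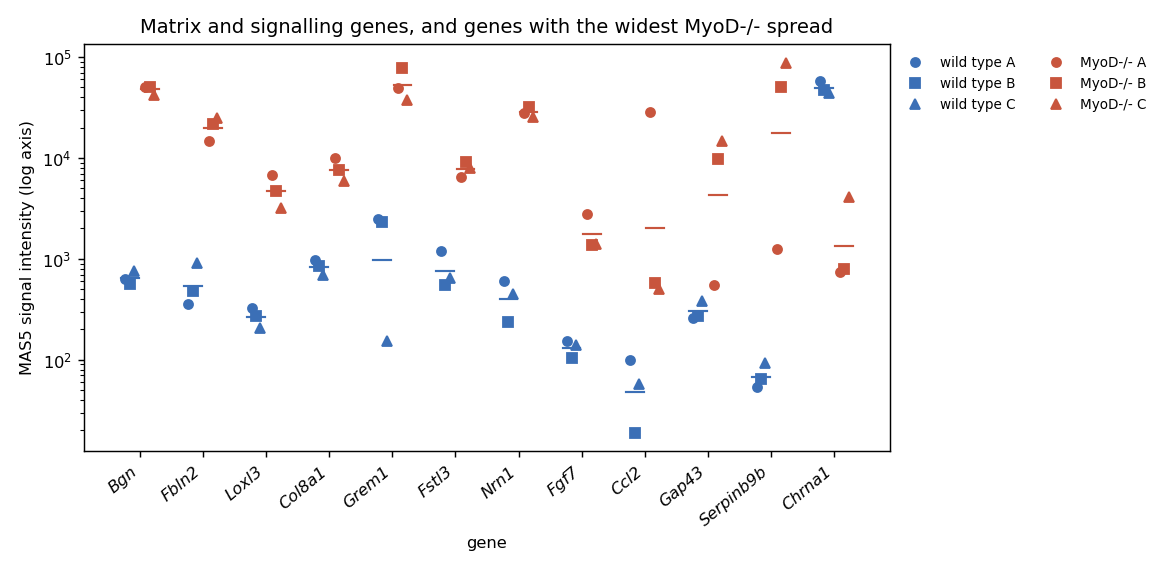
MAS5 signals on a log axis of 12 genes of matrix, signalling and synapse in the 3 wild-type samples (blue) and the 3 MyoD-/- samples (red), with circles, squares and triangles for A, B and C and a line at the mean of the log signals. Ccl2, Gap43 and Serpinb9b show MyoD-/- A apart from B and C, while Bgn, Fbln2 and Nrn1 lie close together within each genotype.

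Of 10 laminin and nidogen genes 2 rose and 2 fell, or 40% called against 13% of all genes. Lama2, the chain of muscle laminin whose loss causes muscular dystrophy, read 1375, 1579 and 1116 in wild type and 163, 139 and 121 in MyoD-/- (log2 -2.77 ± 0.20, adjusted p = 2.98e-05). Lama5 and Lamc1 rose by 1.22 ± 0.16 and 1.06 ± 0.17, and the bright Lama4 was not called at 0.11 ± 0.15.

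Metalloproteases, the plasminogen system and their inhibitors rose in 7 of 23 cases and fell in 2. Mmp3, stromelysin, read 99.1, 36.6 and 97 in wild type and 3471, 3150 and 1281 in MyoD-/- (log2 4.13 ± 0.42, adjusted p = 0.000167), and the collagenase Mmp13 rose by 2.54 ± 0.39. Their inhibitor Timp3 rose by 3.29 ± 0.45, and Timp1, a bright gene, was not called at -0.09 ± 0.19. Adam19, a membrane protease, rose by 1.88 ± 0.25. Mmp23, on chromosome 4, read 3840, 3662 and 4445 in wild type and 1084, 823 and 1235 in MyoD-/- (log2 -1.80 ± 0.17, adjusted p = 0.00029), and Adamts4, which cuts proteoglycans, fell by 1.15 ± 0.18. Without MyoD-/- A or B Mmp19 lost its call as a gene that rose, and Mmp3 and Mmp13 were not tested. Serpins and other protease inhibitors rose in 7 of 16 cases and fell in 1. Tfpi2, an inhibitor bound to the matrix, read 111, 20.2 and 28.4 in wild type and 2406, 5937 and 1824 in MyoD-/- (log2 4.73 ± 0.42, adjusted p = 8.99e-05), and Serpinb6a rose by 0.76 ± 0.12. Serpinf1, pigment epithelium-derived factor, read 25344, 28356 and 27892 in wild type and 18288, 17564 and 17542 in MyoD-/- (log2 -0.61 ± 0.09, adjusted p = 0.00187). Of the 7 that rose, 3 kept their call without MyoD-/- B or C, 2 lost it (Serpinb8 with Cst6 or Serpinb9), and Serpinb9b and Tfpi2 were not tested.

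Integrins, cadherins and other adhesion molecules rose in 10 of 38 cases and fell in 6. Itgb4 read 9483, 12193 and 10760 in wild type and 2110, 1233 and 848 in MyoD-/- (log2 -2.98 ± 0.39, adjusted p = 0.00083), while Itga6, the chain it pairs with to bind laminin, read 1102, 1062 and 596 in wild type and 3921, 3492 and 4065 in MyoD-/- (log2 2.02 ± 0.24, adjusted p = 0.000431). Itga5 and Itgb5, chains of fibronectin and vitronectin receptors, rose by 1.34 ± 0.21 and 1.66 ± 0.22. Vcam1, an adhesion molecule of satellite cells, read 3057, 3468 and 2464 in wild type and 14403, 7292 and 8107 in MyoD-/- (log2 1.65 ± 0.24, adjusted p = 0.00162). Ncam1, an adhesion molecule of myoblasts and nerve cells, read 5522, 5946 and 7505 in wild type and 1765, 2595 and 2246 in MyoD-/- (adjusted p = 0.000337), and Cd82, a tetraspanin, fell by 1.83 ± 0.30. The main muscle laminin receptor Itga7 did not pass at -0.52 ± 0.15 (adjusted p = 0.0559), although its samples did not overlap.

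Annexins and S100 proteins, which bind calcium and take part in membrane repair, rose in 8 of 15 cases and fell in 0, with a median of 0.52. Anxa3 read 1853, 1532 and 3794 in wild type and 12668, 17573 and 23315 in MyoD-/- (log2 2.93 ± 0.33, adjusted p = 0.000341), and Anxa5 read 10378, 13259 and 12482 in wild type and 32203, 29563 and 27739 in MyoD-/- (log2 1.31 ± 0.13, adjusted p = 0.00014). S100a13 rose by 1.24 ± 0.14, and the bright S100a6 and S100a10 were not called at 0.10 ± 0.13 and 0.05 ± 0.13. Anxa1, Anxa2, S100a1 and S100a4 lost their calls without wild type B, MyoD-/- A or MyoD-/- B, or when scan day was a block, and Anxa8 was not tested without MyoD-/- A or B. The calls of Anxa8, Anxa3, Anxa5 and S100a13 were lost under none of the alternatives that tested them. In the intermediate filament list Krt19, a keratin, read 15.4, 16.4 and 22.3 in wild type and 640, 1396 and 3040 in MyoD-/- (log2 4.12 ± 0.62, adjusted p = 0.00195), while nestin and lamin A, Nes and Lmna, were not called and overlapped.

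Glycolysis and hypoxia response genes rose in 8 of 29 cases and fell in 1. Pdk1, which diverts pyruvate from the mitochondria, read 359, 464 and 271 in wild type and 2229, 1478 and 1909 in MyoD-/- (log2 2.17 ± 0.25, adjusted p = 0.00034), and Slc16a3, the lactate exporter, rose by 1.75 ± 0.23. Pfkl and Pgk1, glycolytic enzymes, rose by 0.89 ± 0.13 and 0.62 ± 0.11. The gene that fell was Egln3, an oxygen sensor induced by hypoxia, which read 48323, 44282 and 61344 in wild type and 2701, 2769 and 3737 in MyoD-/- (log2 -4.02 ± 0.23, adjusted p = 7.73e-06). Pkm, Ldha and Hk2 were not called and overlapped. Without wild type B or MyoD-/- C Bnip3, Pfkp and Pgam1 lost their calls, which left 5 that rose.

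Of 35 cytosolic ribosomal protein genes limma called 0, with 1 higher and 0 lower at an unadjusted p under 0.05, and their median was 0.05. Chaperones had 2 up and 2 down of 37, and 7 higher and 8 lower at an unadjusted p under 0.05. Respiratory chain subunits had 1 up and 6 down of 66, and 1 higher and 13 lower unadjusted, and 3 of those that fell, Sdhb, Uqcrh and Ndufb6, lie on chromosome 4. The called shares of both lists are near the 13% of all genes. No share of all genes at an unadjusted p was taken, so the unadjusted counts have no such comparison. Without wild type B Ndufb6, Uqcr10, Uqcrq and Atp5j2 lost their calls. The brightest genes that were not called, such as Rps20, Eef1a1, Lgals1 and Myof, differed by 0.05 ± 0.14, -0.04 ± 0.15, -0.03 ± 0.14 and -0.09 ± 0.13.

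**Figure D3:**
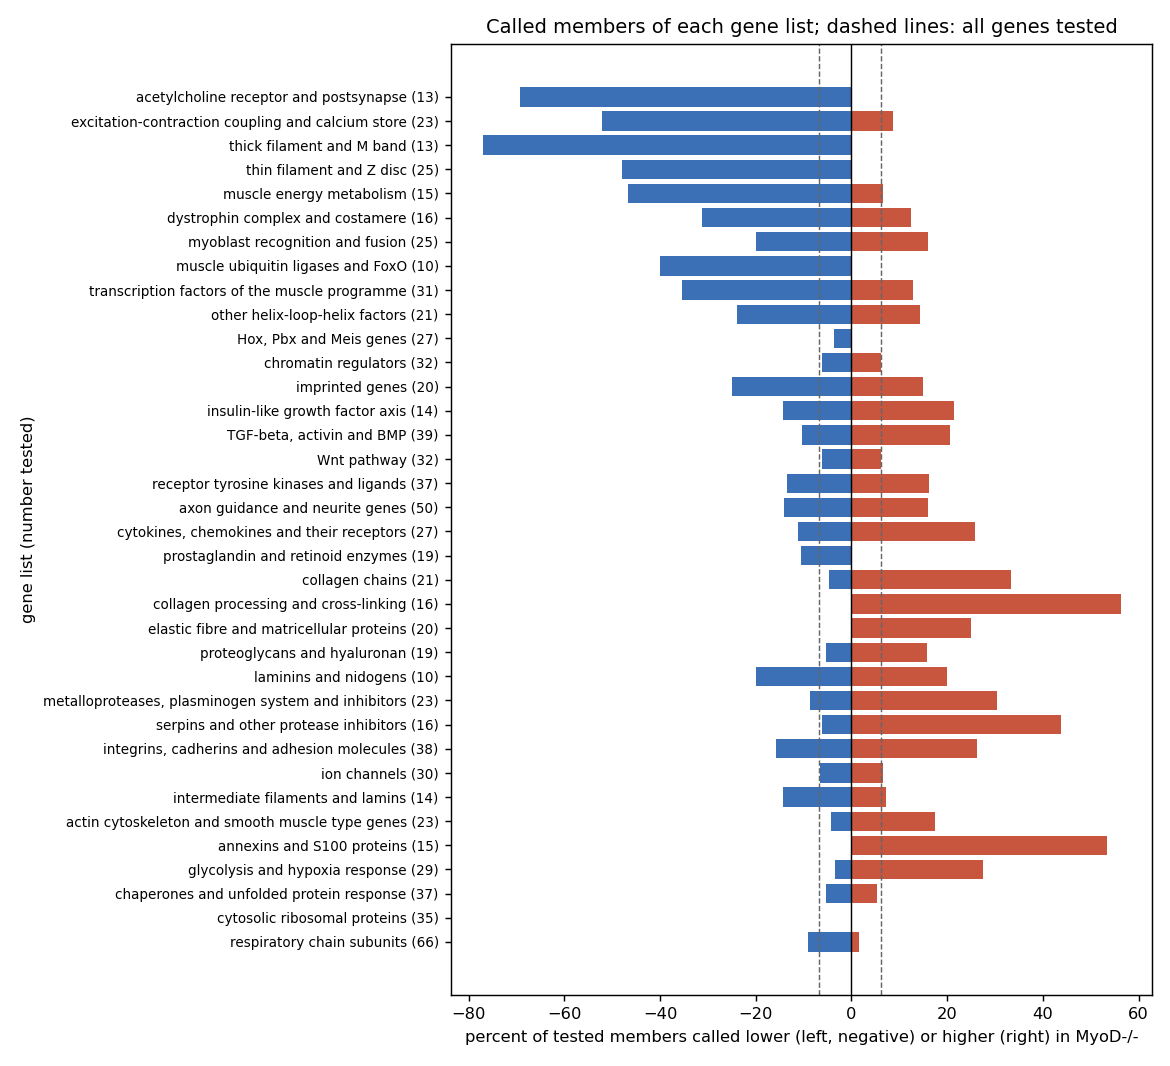
Percent of tested members called lower (blue, to the left) and higher (red, to the right) in MyoD-/- for each gene list with at least 10 tested genes, whose number is in brackets, with dashed lines at 6.83 and 6.15 percent for all genes tested. The synapse, filament and coupling lists lie to the left, the collagen processing, serpin and annexin lists to the right, and ribosomal proteins have no bar.

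Markers of cell types other than myoblasts were read beside these lists. Of 9 myoblast markers measured 6 fell and 2 rose, and the sum of their signals was 78065 to 87898 in wild type and 27981 to 35507 in MyoD-/-. Myod1 supplied much of it, and without it the sums were 40625 to 42738 and 23957 to 30155. Desmin, Des, the filament protein by which wild-type purity was judged, read 3897, 3560 and 3551 in wild type and 200, 79.5 and 305 in MyoD-/- (log2 -3.93 ± 0.33, adjusted p = 6.55e-05). Fibroblast markers, of which 7 of 13 passed the filter, summed to 40038 to 52646 in wild type and 68584 to 72511 in MyoD-/-, and 2 of them rose, Col1a1 and S100a4, neither of which is limited to fibroblasts. Without both the sums were 20145 to 23241 in wild type and 19412 to 20027 in MyoD-/-. The 2 left out were the 2 that rose, so a loss of the excess follows from that choice. Each sum takes the brightest probe set of a gene, and another probe set of the marker Col1a2 was higher in MyoD-/- by 2.63 (adjusted p = 0.0265). The call of S100a4 was lost with the scan day as a block (adjusted p = 0.0596) and without wild type B (adjusted p = 0.0518), MyoD-/- A (adjusted p = 0.0526) or MyoD-/- B (adjusted p = 0.0576). Of the other fibroblast markers Pdgfra, Col1a2, Col3a1, Tcf4 and Ddr2 were tested and not called. Thy1, Dcn, Lum, Fap, Vim and Postn did not pass the filter, with signals of 12.4 to 389 in the 6 samples. Among these Fap read 123 and 129 in MyoD-/- B and C and at most 39.8 in wild type. Dim probe sets do not show that such cells were absent.
In bulk RNA, fewer cells of a type and less RNA per cell cannot be told apart.

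Macrophage and leukocyte markers summed to 2257 to 2853 in wild type and 5933 to 8016 in MyoD-/-. Cd14 made up most of that sum and alone was called, from 1292, 1463 and 1764 to 7050, 6146 and 4567. Cd68 and Csf1r passed the filter and were not called. Cd68 read 384 to 550 in wild type and 491 to 694 in MyoD-/-, and Csf1r 229 to 301 and 275 to 355. Ptprc, Adgre1, Itgam, Lyz2 and Aif1 stayed between 11.5 and 67.4 in all samples. Tyrobp and Fcer1g, also below the filter, read at most 75.1 and 50.4 in wild type and 121 and 120 in MyoD-/-. Endothelial markers summed to 637 to 834 and 339 to 1144, and Cdh5 and Tie1 were near background in both genotypes. Pecam1, which passed the filter and was not called, read 136, 133 and 349 in wild type and 121, 350 and 502 in MyoD-/-. Kdr, below the filter, read 209, 180 and 138 in wild type and 56.6, 259 and 381 in MyoD-/-. Smooth muscle and pericyte markers were mixed, with sums of 13282 to 27294 and 19182 to 39257. Cspg4, a proteoglycan of pericytes and of activated progenitors, read 93.1, 89.7 and 86.9 in wild type and 3158, 7977 and 2774 in MyoD-/- (log2 4.18 ± 0.36, adjusted p = 0.000167), and Rgs5 fell by 2.49 ± 0.25. Pdgfrb, the defining receptor of pericytes, did not pass the filter and read 26.1, 21.1 and 23.5 in wild type and 389, 352 and 265 in MyoD-/-. Schwann and neural markers summed to 6086 to 7436 and 9164 to 11471, and the 1 called, Pmp22, rose by 2.27 ± 0.37. The part of these markers in the signalling results was not tested.

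The 3 MyoD-/- samples were not alike in every gene. MyoD-/- A was at least 4-fold above both others in 8 genes and at least 4-fold below in 15, whereas MyoD-/- B gave 1 and 3 and MyoD-/- C gave 4 and 4, of 12007 genes. The same counts for wild type were 4 and 7 for A, 6 and 12 for B, and 9 and 5 for C. Ccl2, a chemokine for monocytes, read 101, 18.9 and 58.2 in wild type and 28565, 584 and 500 in MyoD-/- (log2 4.17 ± 1.17, adjusted p = 0.0459), and all 3 MyoD-/- samples lay above wild type. Without MyoD-/- A it was still called at 2.32 (adjusted p = 0.00405). The scan-day block, which sets the same array aside on this chip type, gave 2.32 (adjusted p = 0.00264). The call was lost without any 1 wild-type sample (adjusted p = 0.0924 to 0.13). Cxcl1 and Cxcl5, chemokines for neutrophils named after their values were seen, had the same outlying sample at 4604 and 1883, against at most 311 in the other 5 samples.
Gap43, a growth cone protein, read 261, 273 and 383 in wild type and 553, 9694 and 14716 in MyoD-/- (log2 3.60 ± 0.91, adjusted p = 0.029), with its call lost without MyoD-/- B (adjusted p = 0.11) or C (adjusted p = 0.0963) or any 1 wild-type sample (adjusted p = 0.0588 to 0.0859). Serpinb9b read 53.5, 64.5 and 92.3 in wild type and 1256, 50232 and 88212 in MyoD-/- (log2 6.70 ± 1.18, adjusted p = 0.00497), and even MyoD-/- A, its lowest, was far above the highest wild-type sample. Ptger4, a prostaglandin receptor, read 4081, 2141 and 3427 in wild type and 40.8, 461 and 520 in MyoD-/- (log2 -3.30 ± 0.58, adjusted p = 0.00484). Pltp, a lipid transfer protein, read 245, 138 and 309 in wild type and 5563, 1651 and 1004 in MyoD-/- (log2 2.92 ± 0.56, adjusted p = 0.00762), in the reverse order. On U74Av2 and U74Cv2 MyoD-/- A also had its own scan day, and sample and day cannot be told apart there.

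Called genes were not spread evenly over the chromosomes. Chromosome 4 had 18 genes up and 114 down of 738, chromosome 7 had 31 up and 108 down of 890, and chromosome 14 had 64 up and 8 down of 426. The other 17 chromosomes together had 627 up and 590 down of 9953, and their median log2 fold changes were between -0.08 and 0.07. On chromosome 4 the median was -0.22 and 72.8% of genes were below 0. It was -0.14 on chromosome 7 and 0.31 on chromosome 14, where 23.0% of genes were below 0. On chromosomes 4 and 7 and over most of chromosome 14 these are shifts of many genes by a small amount. They lie in part below what a single gene's test can call. At the end of chromosome 14 the shift was larger, with a median of 0.92 over the last 26 tested genes, of which 13 rose.

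**Figure D4:**
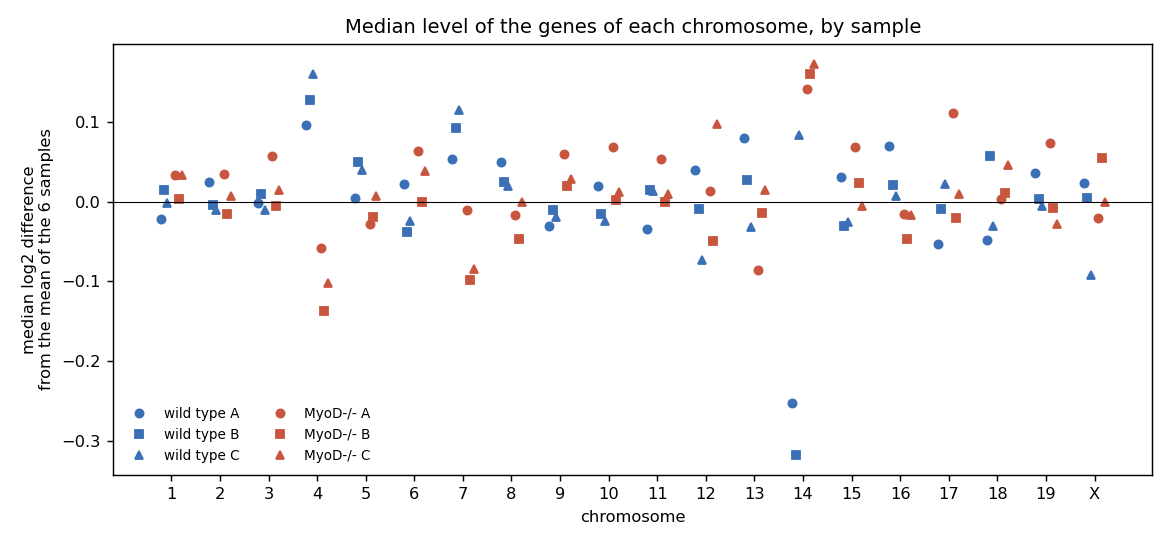
Median over the tested genes of each chromosome of the log2 difference of a sample from the mean of the 6 samples, for wild type (blue) and MyoD-/- (red), with circles, squares and triangles for A, B and C. On chromosomes 4 and 7 the 3 wild-type samples lie above the 3 MyoD-/- samples, and on chromosome 14 wild type A and B lie at -0.253 and -0.318 while wild type C lies at 0.083.

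The samples behind these medians differed by chromosome. On chromosome 4 each MyoD-/- sample lay below each wild-type sample, and the mean of MyoD-/- was 0.20 to 0.27 (log2) lower than wild type A, B or C. The same was true of chromosome 7, by 0.11 to 0.18, where p53-/- cells were lower still, by 0.35 against wild type on U74Av2 and U74Cv2. By chip type the chromosome 7 median was -0.20 on U74Av2 and U74Bv2 and -0.014 on U74Cv2. On chromosome 14 the mean of MyoD-/- exceeded wild type A by 0.43 and wild type B by 0.48 but wild type C by only 0.06. On U74Av2 and U74Cv2 p53-/- cells lay 0.22 above wild type there and MyoD-/- cells 0.06 above p53-/-, comparisons that share samples. The count of chromosome 14 genes that rose was 98 without wild type C, 34 without wild type B and 42 without wild type A, and 38 and 43 without MyoD-/- B and C.

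In runs of 40 neighbouring tested genes, all 18 runs of chromosome 4 had a median below 0, from -0.36 to -0.11, and 21 of 22 runs of chromosome 7. All 11 runs of chromosome 14 were above 0, from 0.13 to 0.92. A run count mostly on 1 side of 0 was not particular to these chromosomes. On chromosome 13, 10 of 11 runs were below 0 (-0.161 to 0.005), and on chromosome 8, 12 of 16 (-0.191 to 0.065). On chromosome 9 only 2 of 17 were below 0 (-0.124 to 0.151). The last run of chromosome 14, 26 genes from Spry2 to Fgf14 of which 13 rose, was higher in MyoD-/- than in each wild-type sample, by 0.83, 1.04 and 0.83 against A, B and C. The run before it, which starts at Tpt1, was higher by 0.38, 0.55 and 0.65. Over most of the other runs wild type C resembled MyoD-/-. Without chromosomes 4, 7 and 14, a choice made after seeing the data, 629 genes rose and 593 fell, among them 8 postsynaptic, 9 thick filament and 8 thin filament genes that fell and 9 collagen enzymes and 7 annexins or S100 proteins that rose.

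**Figure D5:**
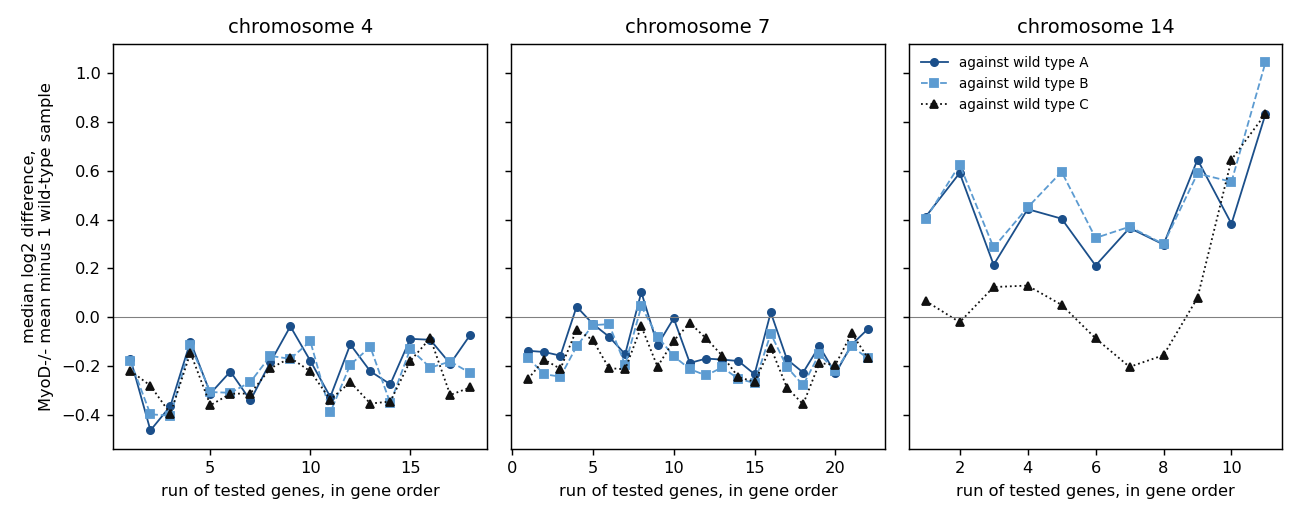
Median log2 difference between the MyoD-/- mean and each wild-type sample in runs of 40 tested genes in gene order on chromosomes 4, 7 and 14. On chromosomes 4 and 7 the 3 lines run close together and mostly below 0, while on chromosome 14 the line against wild type C stays between -0.203 and 0.130 until the last 2 runs, where all 3 are above 0.3.

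Genes with several tested probe sets gave a check on single measurements. Of 4772 such genes 941 had at least 1 probe set called, and all were called the same way in 185. In 752 some were called and the rest not, and in 4 they were called in opposite directions, namely Exosc1, Lmtk2, Lrrfip1 and Psmd4. Where the representative probe set was called, the next brightest had the same sign in 543 of 620 genes and was called the same way in 243. Over these 620 genes, which are no replicates of each other, the 2 fold changes had a Pearson's r of 0.778.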

How the data were processed

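The authors deposited MAS5 signal intensities on a linear scale, 1 value per probe set and array, and MAS5 is named in the submitters' processing notes with no version. No further scaling between arrays was applied. Signals became log2(signal + offset), and limma 3.58.1 (R 4.3.3, statmod 1.5.0) was fitted per chip type with genotype as the factor, all arrays including p53-/-, and eBayes with a trend. Two-sided p-values were adjusted by Benjamini-Hochberg over the 23635 tested probe sets of the 3 chip types. The model was also run on simulated signals with independent noise. These held no effects of scan day, chip lot, sex or chromosome, so that run does not cover such effects. Symbols came from the platform annotation (29131 probe sets with 1 symbol, 724 with several, 6846 with none), and promoters from RefSeq, GRCm38.p6.

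Named genes were the 15 highest and 15 lowest called genes and up to 5 called members per list and direction. These were taken only from genes whose genotypes did not overlap, so their lack of overlap follows from the choice. Added were any of the first 6 written in a list, a fixed set and those with the widest MyoD-/- spread. Also named were the called neighbours of Myod1 and the brightest genes not called. Xist, Eif2s3y, Cxcl1, Cxcl5, the 4 genes with opposing probe sets and genes at the ends of runs were picked with their values known. The members and lists were chosen with earlier results of these data known. Alternatives were other offsets, filters, normalizations and eBayes settings, array weights, scan day and letter as blocks, other probe set choices and leaving out each sample. Arrays carry no counts, so their number limits precision, and an exact permutation test of 3 against 3 cannot go below p = 0.1. The sources used here do not tell how letters relate to mice. P-values therefore measure only the spread between these samples. Wild type B differed in sex-linked genes from wild type A and C, so it was no repeat of them. The spread between wild type A and C and that within MyoD-/- may be technical. Correlations of same-letter deviations were -0.12 to 0.08, so letters were not taken as pairs.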

Additional observations from a re-analysis of the deposited data

How the results depend on the processing

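Under the alternatives run, 742 genes that rose and 823 that fell became 444 to 725 and 488 to 821 on leaving out 1 sample, and 1178 and 1337 probe sets became 699 to 1165 and 753 to 1341, with the lowest values without wild type B. U74Av2 alone gave 642 probe sets higher and 695 lower. With the scan day as a block 554 genes rose and 638 fell, and 997 of 1565 called genes kept their call and direction. The letters as a replicate block gave 652 and 709 genes and 1021 and 1146 probe sets, and -3.07 for Myod1, which was -3.15 to -2.94 on leaving out 1 sample. The lists held 267 called genes and the named genes 238. Of 237 named called genes beside Myod1, 176 were lost under none of the alternatives that tested them and 29 were lost under 6 or more, among them Bhlhe41, Fkbp1a, Anxa1, Cnn2, Serpinb8, Il18, Lmnb2 and Igf2. With the probe set of the smallest p in place of the brightest, Col1a2 was 2.63 (adjusted p = 0.0265), Myh7 was -3.05 (adjusted p = 0.000959) and Sox9 was 0.61 (adjusted p = 0.0475), each opposite in sign to its brightest probe set, and the cause was not tested. Genes near the offset have little signal over background, which limits their fold changes.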

Other observations

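Several of the widest gaps between the genotypes lay in genes that no list held. Lrrn1, a leucine-rich repeat protein of the cell membrane, read 13618, 12104 and 13191 in wild type and 41.7, 95.2 and 147 in MyoD-/- (log2 -6.38 ± 0.28, adjusted p = 1.71e-06), and Trp53i11, a membrane protein gene named for its induction by p53, read 19432, 31273 and 16791 in wild type and 1172, 823 and 861 in MyoD-/- (log2 -4.33 ± 0.23, adjusted p = 1.70e-05). No MyoD-/- sample came near a wild-type sample in these 2 genes, which were picked among genes whose genotypes did not overlap. On the side that rose, Itih2, a chain of a hyaluronan-binding inhibitor, read 71.5, 72.8 and 61.2 in wild type and 4109, 2935 and 2358 in MyoD-/- (log2 4.53 ± 0.24, adjusted p = 5.42e-06). Rasgrf1, a Ras exchange factor, read 186, 200 and 149 in wild type and 7346, 8840 and 5282 in MyoD-/- (log2 4.65 ± 0.28, adjusted p = 8.56e-06). Ptpn22, a phosphatase best known from lymphocytes, read 87.5, 253 and 78.1 in wild type and 6323, 4094 and 1537 in MyoD-/- (log2 4.18 ± 0.46, adjusted p = 0.000292). Itgbl1, a secreted relative of integrins on chromosome 14, rose by 4.54 ± 0.42. Esm1, a proteoglycan of activated endothelium, read 11403, 469 and 844 in wild type and 40619, 46045 and 41954 in MyoD-/- (log2 4.49 ± 0.89, adjusted p = 0.0127), where wild type A was over 10 times brighter than wild type B and C.

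Of 27 tested Hox, Pbx and Meis genes, which mark position along the body, 0 rose and 1 fell. That gene was Hoxa7, at 458, 595 and 562 in wild type and 106, 64.5 and 58.5 in MyoD-/- (log2 -2.08 ± 0.33, adjusted p = 0.00231), while its cluster neighbour Hoxa6 was not called at -0.16 ± 0.21. Of 30 ion channels 2 rose and 2 fell, near the 13% of all genes. Clcn5, a chloride transporter of endosomes, read 6652, 6643 and 5971 in wild type and 1786, 2133 and 2893 in MyoD-/- (adjusted p = 0.000256), and the potassium channel Kcnk2 rose by 1.10 ± 0.20. Wnt pathway genes had 2 up and 2 down of 32, a similar share, with Fzd5 up by 1.31 ± 0.23 and Tcf7l2 down by 1.29 ± 0.20, and both calls were lost with the scan day as a block (adjusted p = 0.0569 and 0.0698). Prostaglandin and retinoid enzymes had 0 up and 2 down of 19.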
